A study of Macaca mulatta with 6 samples.

Results

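Enzymes of the urea cycle and of polyamine synthesis and acetylation were examined by bulk RNA sequencing in cultured rhesus monkey cells. The study names these cells spermatogonial stem cells (SSCs), and SSC is kept here as the name of the groups. Markers of this and other cell types are given below. The urea cycle enzymes were CPS1, OTC, ASS1, ASL, ARG1 and ARG2, and the others were ODC1, SRM, SMS and SAT1. Of the 10 named genes, 9 were among the 17795 genes of the count table, 8 had at least 1 count and 7 passed the count filter, while SAT1 was not analysed here. These genes were selected on the comparison of cultures with and without PDGF, with its results known, so their differences in that comparison, and the calls they received in the fit over all genes, are a description and support nothing. Human platelet-derived growth factor (PDGF) was in the medium of the 3 SSC PDGF+ libraries and, by the labels, not in that of the 3 SSC PDGF- libraries. In both groups the labels place replicate 1 in batch 1 and replicates 2 and 3 in batch 2.

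As the study's methods describe it, cells were embedded in droplets of basement membrane extract under a serum-containing medium with GDNF, EGF, LIF, bFGF, Wnt3a, melatonin, biotin, vitamin C, glutamine and putrescine. Putrescine is the product of ODC1, so the polyamine enzymes were measured in cells that were given this polyamine from outside. The labels give the tissue as testis, and the sources used here do not give the age of the donors, the days in culture or whether replicates were separate cultures. If they were not, the p-values below measure only technical spread between these libraries. Totals ranged from 13095467 to 14102697 counts in SSC PDGF+ and from 10593805 to 11605908 in SSC PDGF-. Of the spermatogonia markers, ID4 stood at 131 and 163 CPM in SSC PDGF+ and SSC PDGF- (CPM is the count of a gene relative to the normalized total of its library). GFRA1 (0.118 and 0.538), ZBTB16 (0.026 and 0.264), DDX4 (0.304 and 2.13) and DAZL (0.209 and 1.13) were near 0. The spermatid markers TNP1 (29.9 and 296) and TNP2 (31.3 and 280) were not. DDX4 was called lower with PDGF (log2 fold change -2.72, adjusted p = 0.0284, edgeR), and ID4 and DAZL were not called. DDX4 passed the count filter through SSC PDGF-, so its call is a description. With the replicate number added to the model all 3 were called lower, where 29.0% of all genes were. The fibroblast markers COL1A1, COL1A2, COL3A1, DCN, LUM and PDGFRA (with counts identical to those of FIP1L1) together reached 13818 to 19026 CPM in SSC PDGF+ and 16655 to 18768 CPM in SSC PDGF-. Within this sum COL3A1 (log2 fold change with PDGF -1.07, adjusted p = 0.000421, edgeR) and PDGFRA (-0.56, adjusted p = 0.0439) were called lower. These were 2 of 6 tested, where 10.7% of all genes were called lower. COL1A1 (0.60), COL1A2 (0.18), DCN (-0.62) and LUM (-0.42) were not called.

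The urea cycle disposes of ammonia, and in full it runs only in liver. CPS1 makes carbamoyl phosphate from ammonia in mitochondria, OTC joins it to ornithine, ASS1 and ASL turn citrulline into arginine, and the arginases ARG1 (cytosolic) and ARG2 (mitochondrial) split arginine into urea and ornithine. Outside liver ASS1 and ASL serve arginine supply, and ornithine feeds the polyamines through ODC1, which makes putrescine, after which SRM makes spermidine and SMS spermine. Polyamines are abundant in proliferating cells and in the testis.

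CPS1 RNA was almost absent with PDGF and present at a low level without it. The libraries of SSC PDGF+ replicates 1, 2 and 3 held 0, 1 and 0 counts of CPS1, and those of SSC PDGF- held 86, 59 and 51. Each of the 3 libraries without PDGF thus lay above every library with it. As normalized levels these were 0, 0.0781 and 0 CPM against 7.06, 5.65 and 4.99 CPM, with means of 0.026 ± 0.0451 and 5.90 ± 1.06 CPM (SD, n = 3 each). Over the pooled counts CPS1 was 244 times as abundant without PDGF, with a 95% Clopper-Pearson interval of 43.3 to 9699. This interval accounts for counting alone, as copies made by PCR look like separate molecules here. The fitted log2 fold change of -7.42 depends on the prior count given to an almost empty group and sets no bound. In bulk libraries fewer cells of a type and less RNA per cell cannot be told apart.

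The enzyme that acts after CPS1 in mitochondria was not detected. OTC had 0 counts in all 6 libraries, which allows at most 0.202 to 0.294 CPM per library at a floor of 3 counts. Liver cells were looked for through 12 marker genes, of which 11 were in the table. ALB, APOA2, APOB, TAT and PCK1 had no count in any library. The remaining hepatocyte markers, without HP, whose counts are identical to those of DHODH, summed to 6.003 to 8.78 CPM in SSC PDGF+ and 13.9 to 19.7 CPM in SSC PDGF-, most of it APOA1 (7.12 against 15.5 CPM, log2 fold change -1.13, adjusted p = 0.0177, edgeR). APOA1 was the 1 called of 2 hepatocyte markers tested, where 10.7% of all genes were called lower. The paper also reports APOA1 expression during meiosis, so APOA1 is not a marker of liver cells alone. FGA had no count with PDGF and 11, 4 and 0 counts in SSC PDGF- replicates 1, 2 and 3, and FGB none against 4, 0 and 9. SERPINA1 went the other way, with 9 counts in all with PDGF and 4 without. HNF4A, a transcription factor of liver and gut epithelium that drives urea cycle genes, had no count with PDGF and 9, 0 and 2 counts without, so that 1 library holds most of its counts. Their part in the CPS1 difference was not tested.

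CPS1 is also made in the epithelium of the small intestine, so epithelial markers were summed in each library. The summed level of EPCAM, CDH1, KRT18, KRT19 and CLDN4 was 15.8 to 24.6 CPM in SSC PDGF+ and 43.1 to 57.6 CPM in SSC PDGF-. CDH1, the epithelial cadherin (log2 fold change -2.84, adjusted p = 0.0224), and the keratin gene KRT18 (-1.61, adjusted p = 0.00156) fell with PDGF in edgeR's test. These were 2 of the 4 markers tested, where 10.7% of all genes were called lower. KRT19 (-0.92, adjusted p = 0.0780) and CLDN4 (-0.80, adjusted p = 0.181) were not called, and CLDN4 overlapped between groups. CDH1 held 4, 0 and 6 counts in SSC PDGF+ replicates 1, 2 and 3 and passed the filter through SSC PDGF-. Its call is therefore a description. Among enterocyte markers SI and ALPI had no count, and none of the 2 tested (VIL1 and CDH17) was called. Both were called lower once the replicate number was added to the model, where 29.0% of all genes were. The part of these cells in the CPS1 difference was not tested.

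ASS1, which joins citrulline and aspartate, was low throughout and lower with PDGF. Its levels were 0.405, 0.625 and 0.826 CPM in SSC PDGF+ replicates 1, 2 and 3, from 6, 8 and 11 counts. In SSC PDGF- they were 1.89, 4.21 and 2.25 CPM, from 23, 44 and 23 counts. The groups did not overlap, with means of 0.619 ± 0.211 and 2.78 ± 1.25 CPM (SD, n = 3 each) and a log2 fold change of -2.16 ± 0.48 (standard error). SSC PDGF- replicate 2 was the highest of all, and without it the log2 fold change was -1.73 and no longer called. The call was also lost without SSC PDGF+ replicate 1 (-1.91) or replicate 2 (-2.16).

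ASL, which releases arginine from argininosuccinate, showed no such gap. Its levels were 21.0, 28.4 and 34.5 CPM in SSC PDGF+ and 27.9, 36.7 and 42.6 CPM in SSC PDGF-. The ranges overlapped, and within each replicate number the library with PDGF was the lower (log2 fold change -0.35 ± 0.23).

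The arginases differed from each other. ARG1, the liver form, had 2, 3 and 1 counts in SSC PDGF+ and none in SSC PDGF-. The counting interval of the ratio with PDGF over without starts at 0.945, so no difference was detectable at this depth. ARG2, the mitochondrial form, stood at 53.4, 47.9 and 51.6 CPM with PDGF and at 50.6, 46.9 and 50.6 CPM without, ranges that overlap, with a log2 fold change of 0.05 ± 0.14. On the opposite strand 53.6% of the ARG2 exon bases are shared with VTI1B in the RefSeq annotation release for Mmul_10. VTI1B itself was counted at no more than 0.405 CPM in any library. Strand use in counting is not given, so whether VTI1B reads were counted under ARG2 was not tested.

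ODC1, the entry enzyme of polyamine synthesis, was higher with PDGF. Its levels were 122, 123 and 120 CPM in SSC PDGF+ and 81.1, 92.8 and 82.7 CPM in SSC PDGF-. All 3 libraries with PDGF lay above all 3 without, with means of 122 ± 1.62 and 85.5 ± 6.31 CPM (SD, n = 3 each) and a log2 fold change of 0.51 ± 0.13. The call of ODC1 was lost when SSC PDGF+ replicate 2 or 3 or SSC PDGF- replicate 2 or 3 was left out, with log2 fold changes of 0.46 to 0.57 over the 6 omissions.

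The synthases that follow ODC1 varied more between batches than between groups. SRM, spermidine synthase, was at 197, 314 and 322 CPM with PDGF and at 176, 267 and 270 CPM without (log2 fold change 0.23 ± 0.24). SMS, spermine synthase, was at 132, 113 and 104 CPM with PDGF and at 157, 115 and 110 CPM without (-0.13 ± 0.18). For both enzymes the groups overlapped, and replicate 1 stood apart from replicates 2 and 3 in each group.

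**Figure D1:**
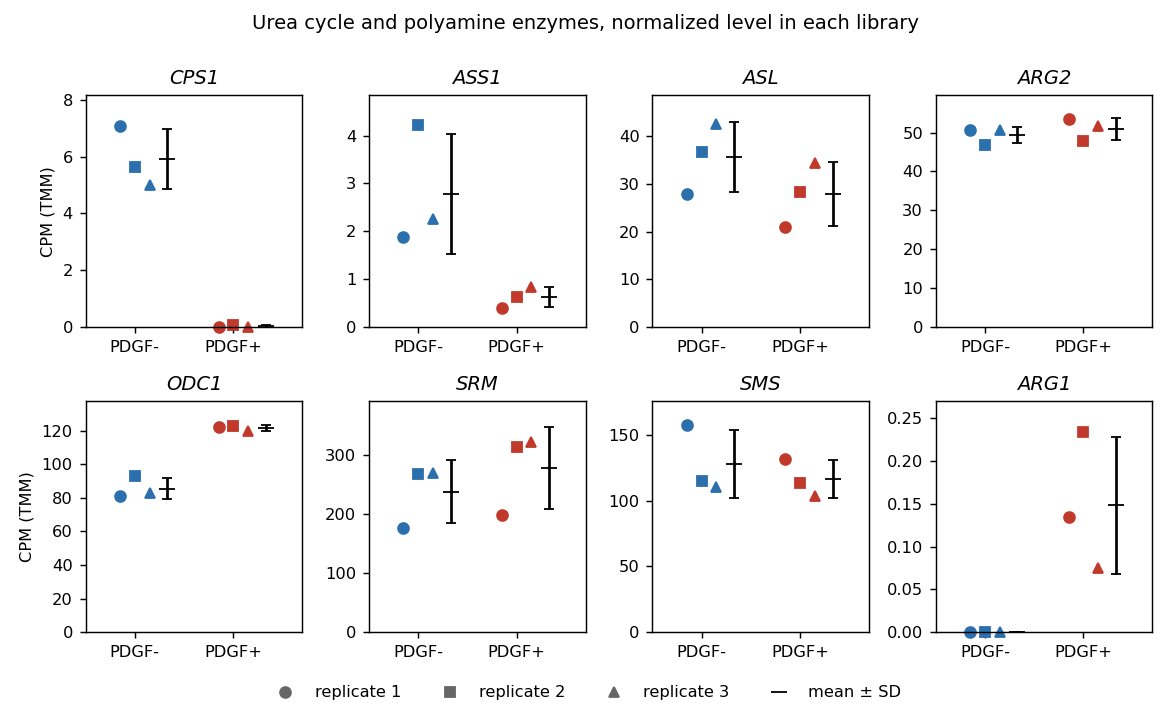
Normalized level (CPM with TMM factors, linear axes from 0, a separate scale for each gene) of 8 urea cycle and polyamine enzymes in the 3 SSC PDGF- and 3 SSC PDGF+ libraries, with the mean ± SD beside the points and a symbol for each replicate number. CPS1, ASS1 and ODC1 did not overlap between groups. Neither did ARG1, which rested on 6 counts in all. In SRM and SMS replicate 1 stood apart in both groups.

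Per kilobase of annotated exons, SRM had the highest level of these enzymes in both groups. In SSC PDGF+ the mean levels were 243 CPM per kilobase for SRM, 48.3 for ODC1, 39.6 for SMS, 17.7 for ASL, 16.9 for ARG2, 0.364 for ASS1, 0.0969 for ARG1 and 0.00447 for CPS1. ASL and ARG2 overlapped between libraries and were not separated in that order. Without PDGF, SRM had 208 CPM per kilobase, SMS 43.5, ODC1 34.005, ASL 22.7, ARG2 16.4, ASS1 1.64 and CPS1 1.01, with ASS1 and CPS1 overlapping and ARG1 at 0. OTC was at 0 in both groups. ODC1 stood above SMS with PDGF and below it without.

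Over the whole table edgeR called a gene at a Benjamini-Hochberg adjusted p under 0.05. Of the 7 enzymes that passed the filter, ODC1 was called higher, where 7.61% of the 11539 genes tested were. CPS1 and ASS1 were called lower, where 10.7% of all genes were, and in both the filter was passed through the libraries without PDGF. Groups that did not overlap in the higher direction were found for ODC1 among these 7, against 18.2% of all genes, and in the lower direction for CPS1 and ASS1, against 19.3%. The median log2 fold change was -0.13 over the 7 enzymes and 0.02 over all genes tested. Nothing is read from these counts, because the genes were selected on this contrast.

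Libraries of the same replicate number share a batch, and when the replicate number was added to the model (the replicate block) more genes were called in each direction, 31.1% higher and 29.0% lower. Under this replicate block SRM joined ODC1 as called higher (log2 fold change 0.22 ± 0.05, 2 of 7 enzymes), and ASL joined CPS1 and ASS1 as called lower (-0.36 ± 0.10, 3 of 7). Correcting each library for GC content and gene length in the same fit took ASL to 0.11 ± 0.09, not called, SRM to 0.87 ± 0.05 and SMS to -0.33 ± 0.06, called lower. SRM and ASL are among the GC-rich of these genes, with 62.3% and 61.1% GC, and SMS is the poorest at 37.0%. The direction of ASL and the size of the SRM difference therefore depend on this correction, and in that fit CPS1 had -7.55, ASS1 -1.77 and ODC1 0.62.

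The batch difference is a measure that the choice of genes did not use. Between batch 1 and batch 2 at equal PDGF, edgeR called 3 of the 7 enzymes, where 27.9% of all genes were higher in batch 1 and 29.3% lower. SRM was lower in batch 1 (log2 fold change -0.65 ± 0.05, adjusted p = 5.19e-11), and so was ASL (-0.54 ± 0.11, adjusted p = 0.000206). SMS was higher in batch 1 (0.38 ± 0.06, adjusted p = 1.06e-05). No batch difference was called for CPS1 (0.35 ± 0.44, adjusted p = 0.511), ASS1 (-0.79 ± 0.50, adjusted p = 0.182), ARG2 (0.08 ± 0.08, adjusted p = 0.425) or ODC1 (-0.05 ± 0.06, adjusted p = 0.536). Batch 1 holds 1 library in each group, and what the batches are is not stated in the labels.

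Within each batch the differences with PDGF had the same sign for these 7 enzymes. Log2 differences in batches 1 and 2 were -7.72 and -6.54 for CPS1, -2.14 and -2.13 for ASS1, and 0.59 and 0.47 for ODC1. For ASL they were -0.41 and -0.33, for SRM 0.17 and 0.24, for SMS -0.25 and -0.06, and for ARG2 0.08 and 0.03. CPS1 had 0 counts with PDGF in batch 1 and 1 in batch 2. Its 2 values therefore depend on the small constant added to the counts and set no bound. A test of whether the PDGF difference itself changed between batches called none of the 7 enzymes in edgeR, the smallest adjusted p being 0.968 for SMS. It called 0 of 11539 genes (0.00%), 526 having an unadjusted p under 0.05. The spread in that fit comes from batch 2 alone, and with no count filter the test called 6 genes in one direction and 7 in the other, none of them an enzyme of this set.

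**Figure D2:**
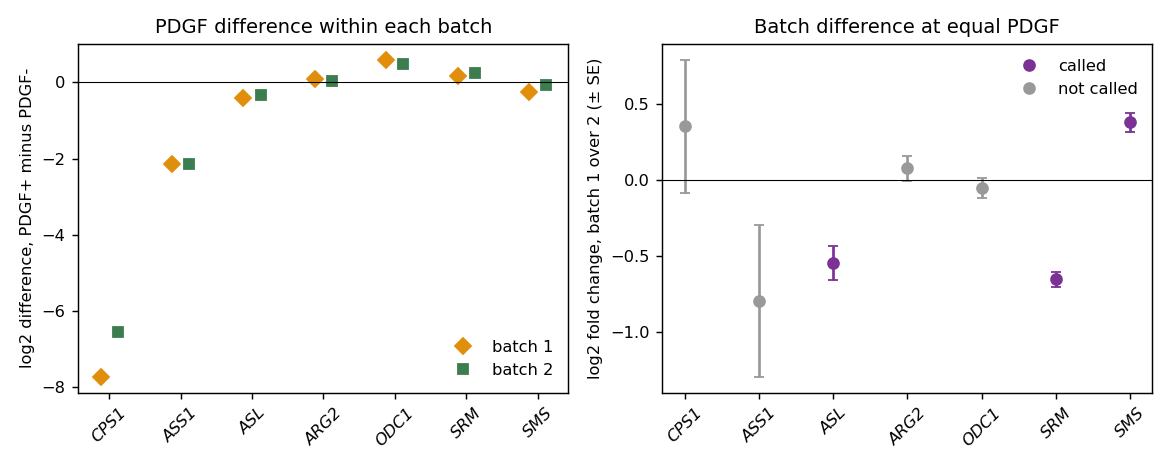
Left, log2 difference of SSC PDGF+ minus SSC PDGF- within batch 1 (replicate 1) and batch 2 (replicates 2 and 3) for 7 enzymes. The CPS1 points depend on the small constant added to the counts. Right, log2 fold change of batch 1 over batch 2 at equal PDGF with standard error, in which SRM and ASL were called lower and SMS higher in batch 1.

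Around these enzymes, 74 further genes of nitrogen, arginine and polyamine metabolism were listed, of which 69 were in the table and 54 passed the filter. With PDGF 4 rose and 4 fell by edgeR's test, beside the 7.61% and 10.7% of all genes given above, and their median log2 fold change was -0.01. Under the replicate block 16 were called higher and 17 lower, shares near the 31.1% and 29.0% of all genes.

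Among the 5 tested regulators of ODC1, 1 fell with PDGF and none rose, where 10.7% of all genes were called lower and 7.61% higher. Antizymes bind ODC1 monomers and send them to the proteasome, and antizyme inhibitors (AZIN1 and AZIN2) draw antizymes away. Full-length antizyme is made only if the ribosome shifts frame at a stop codon, which polyamines promote, so polyamine levels limit their own synthesis. The sites of the 3 antizymes are shown because they carry this control, on the sense strand 5′ to 3′ as DNA letters from RefSeq transcripts of rhesus monkey, with the shift codon and the stop codon in capitals.
OAZ1: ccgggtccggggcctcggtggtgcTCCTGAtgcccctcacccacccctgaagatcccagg
OAZ2: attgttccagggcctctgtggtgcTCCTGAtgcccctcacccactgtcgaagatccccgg
OAZ3: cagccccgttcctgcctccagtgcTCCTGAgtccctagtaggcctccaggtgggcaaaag

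The capitals begin at base 281 of the 1157 bases of the OAZ1 transcript, at base 310 of 1912 in OAZ2 and at base 293 of 889 in OAZ3. OAZ1 and OAZ2 share 49 of the 60 bases shown, whereas OAZ3 shares 25 with OAZ1 and 22 with OAZ2. Each site was found as the 6 capitals preceded by the codon TGC.

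OAZ3, the antizyme of haploid male germ cells, fell with PDGF. Its levels were 6.75, 7.97 and 7.43 CPM in SSC PDGF+ and 57.0, 76.4 and 85.0 CPM in SSC PDGF-. The groups were far apart, with a log2 fold change of -3.30 ± 0.21 and an adjusted p of 8.7e-05 (edgeR). The spermatid markers TNP1, TNP2, ACRV1 and TMEM190 summed to 48.7 to 76.7 CPM with PDGF and 415 to 688 CPM without. The 3 that were tested fell (TNP1 log2 fold change -3.30, TNP2 -3.17 and TMEM190 -2.23), where 10.7% of all genes were called lower. Their part in the OAZ3 difference was not tested. Of the OAZ3 exon bases, 29.5% are shared with TDRKH on the opposite strand, which reached at most 1.47 CPM. Whether TDRKH reads were counted under OAZ3 was not tested.

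The general antizymes were not called. OAZ1 stood at 700, 827 and 869 CPM with PDGF and at 678, 808 and 829 CPM without (log2 fold change 0.05 ± 0.14, adjusted p = 0.835, edgeR), and only the block with GC and length correction, among the alternatives run for it, called it, at 0.49 (adjusted p = 1.16e-08). OAZ2 was at 163, 145 and 147 CPM against 203, 198 and 202 CPM, groups that did not overlap, and narrowly missed the threshold (-0.40 ± 0.12, adjusted p = 0.0531). With the replicate block OAZ2 was called lower (adjusted p = 8e-07). Of the inhibitors, AZIN1 had a log2 fold change of 0.10 ± 0.20 and AZIN2, the form of testis and brain, of -0.95 ± 0.31 (adjusted p = 0.067), and the block called AZIN2 lower (-0.94, adjusted p = 1.91e-05).

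SAT2, a relative of the spermidine acetyltransferase SAT1, which was not analysed here, fell with PDGF. Its levels were 34.2, 41.6 and 36.5 CPM with PDGF and 70.1, 82.5 and 70.9 CPM without, with no overlap (log2 fold change -0.99 ± 0.15, adjusted p = 0.00374, edgeR). With the GC and length correction the difference was -0.41 and remained called. SMOX, which oxidizes spermine back to spermidine, was at 116 to 198 CPM with PDGF and 98.3 to 145 CPM without (0.37 ± 0.24, adjusted p = 0.316), and the block called it higher (0.36, adjusted p = 1.35e-05).

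SLC22A3, a cation transporter that carries polyamines among other substrates, fell about as far as OAZ3. Its levels were 2.16, 1.64 and 2.33 CPM with PDGF and 28.6, 17.7 and 16.4 CPM without (log2 fold change -3.35 ± 0.30, adjusted p = 0.000346, edgeR). It was the 1 gene called of 4 transport genes tested, where 10.7% of all genes were called lower. The groups did not overlap, as in 19.3% of all genes in the lower direction. The summed level of the smooth muscle and peritubular myoid markers ACTA2, MYH11, DES and CNN1 was 147 to 158 CPM with PDGF and 337 to 377 CPM without. Most of it was ACTA2 (139 against 316 CPM). ACTA2 (log2 fold change -1.19) and DES (-3.27) were called lower, where 10.7% of all genes were. MYH11 (-0.20, adjusted p = 0.601, edgeR) overlapped between groups, and neither it nor CNN1 (-0.92, adjusted p = 0.134) was called. The part of smooth muscle and peritubular myoid cells in the SLC22A3 difference was not tested.

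**Figure D3:**
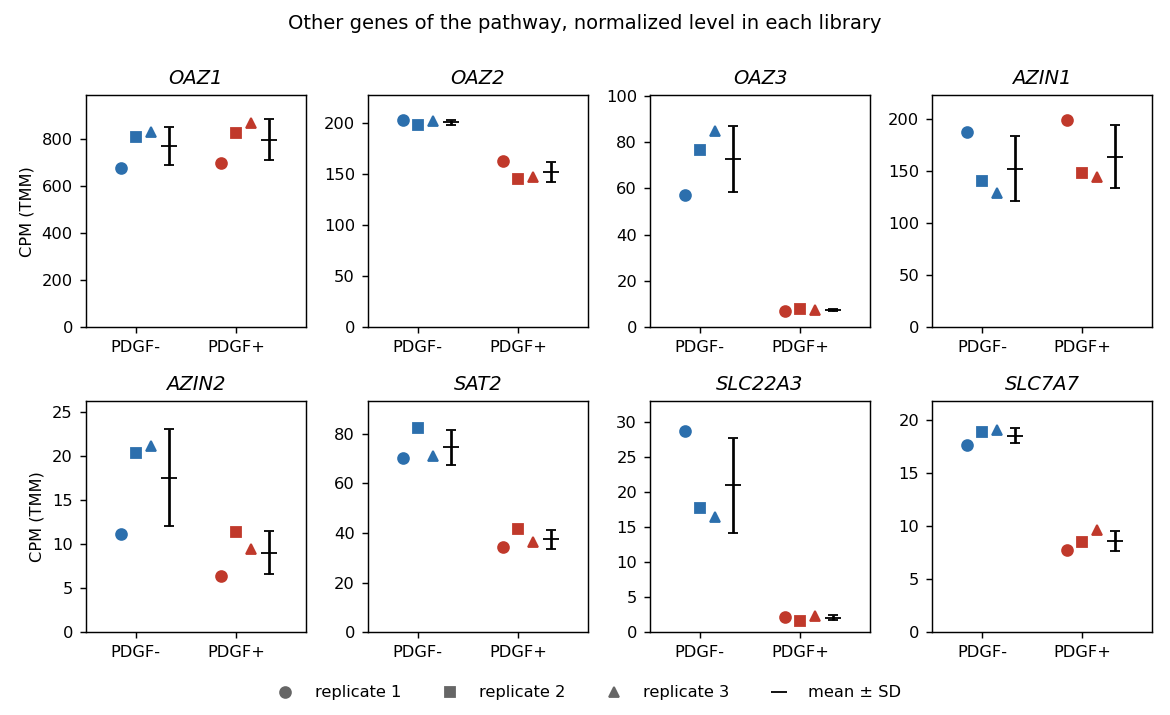
Normalized level (CPM with TMM factors, linear axes from 0, a separate scale for each gene) of antizymes, antizyme inhibitors, SAT2 and the transporters SLC22A3 and SLC7A7 in the 3 SSC PDGF- and 3 SSC PDGF+ libraries, with the mean ± SD beside the points. OAZ3 lay at 6.75 to 7.97 CPM with PDGF and at 57.0 to 85.0 CPM without, whereas OAZ1 overlapped between groups.

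Synthesis of spermidine and spermine consumes decarboxylated AdoMet and leaves methylthioadenosine, which is salvaged to methionine. Of 8 tested genes of this cycle 2 rose with PDGF and none fell, where 7.61% of all genes were called higher and 10.7% lower. MTAP, which cleaves methylthioadenosine, was at 46.9, 40.7 and 37.4 CPM with PDGF and at 26.0, 28.7 and 29.4 CPM without (log2 fold change 0.57 ± 0.16, adjusted p = 0.0393, edgeR). ENOPH1, a later enzyme of the salvage, was at 27.3, 26.2 and 25.0 CPM against 13.6, 14.8 and 17.2 CPM (0.78 ± 0.16, adjusted p = 0.014). On the opposite strand 13.4% of the ENOPH1 exon bases are shared with HNRNPDL, which was at 229 to 357 CPM, and 15.3% of those of MTAP with an unnamed gene not analysed here. HNRNPDL itself overlapped between groups and was not called (0.11 ± 0.21). Neither MTAP nor ENOPH1 overlapped between groups, where 18.2% of all genes did not overlap in the higher direction. The ENOPH1 call was lost without SSC PDGF+ replicate 2 or 3 or SSC PDGF- replicate 2, and the MTAP call was lost under each of the 6 single-library omissions, at log2 fold changes of 0.49 to 0.65, and with upper quartile factors (adjusted p = 0.0663). AMD1, which makes decarboxylated AdoMet, was not called (0.18 ± 0.24, adjusted p = 0.635) and was called higher with the block (0.19, adjusted p = 0.00118), but not after the GC and length correction (adjusted p = 0.964).

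Among 11 tested genes of arginine uptake and other uses of arginine, 2 rose and 1 fell with PDGF, where 7.61% of all genes were called higher and 10.7% lower. SLC7A1, the main cationic amino acid importer of most cells, was at 7.69, 8.20 and 7.81 CPM with PDGF and at 4.51, 4.31 and 5.19 CPM without (log2 fold change 0.76 ± 0.21, adjusted p = 0.0381, edgeR). Its call was lost under every single-library omission, at log2 fold changes of 0.71 to 0.84, and with upper quartile factors (adjusted p = 0.0521). GATM, which takes the amidino group of arginine for creatine synthesis, was at 27.1, 22.3 and 19.7 CPM against 14.2, 7.66 and 11.6 CPM (1.05 ± 0.25, adjusted p = 0.0245), and was not called without SSC PDGF+ replicate 2 or SSC PDGF- replicate 2 or 3. Of its exon bases 50.9% are shared with GTF2IRD1_1 on the opposite strand, not analysed here. SLC7A7, which exports arginine in exchange for neutral amino acids, was at 7.76, 8.44 and 9.61 CPM against 17.6, 18.9 and 19.0 CPM (-1.10 ± 0.18, adjusted p = 0.00439). In these 3 genes no library of a group reached the other group, as in 18.2% of all genes in the higher direction and 19.3% in the lower.

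The remaining lists held no called gene. Of the mitochondrial carriers and cofactor genes of the urea cycle, 3 were tested, and SLC25A12, an aspartate-glutamate carrier, had a log2 fold change of -0.06 ± 0.17. GLUD1, which releases ammonia from glutamate, had 0.11 ± 0.12 among 4 glutamine and ammonia genes. CAD holds the cytosolic carbamoyl phosphate synthetase of pyrimidine synthesis and was at 144, 184 and 178 CPM with PDGF and 158, 193 and 204 CPM without (-0.13 ± 0.16, adjusted p = 0.599, edgeR), groups that overlapped. With the replicate block CAD was called lower at nearly the same size (adjusted p = 0.0302). Per kilobase CAD stood at 23.0 CPM with PDGF and 25.2 CPM without, against 0.00447 and 1.01 CPM for CPS1.

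In the ornithine and proline list PYCR3, a pyrroline-carboxylate reductase, had -0.72 ± 0.27, but its counts are identical to those of EEF1D in all 6 libraries and cannot be assigned to it. With the replicate block this pair was called lower (adjusted p = 3.86e-13). EIF5A, the translation factor that receives hypusine from spermidine, had 0.17 ± 0.13 among 3 tested genes and was called higher with the block (0.18, adjusted p = 0.00234). Of the transcription factors of liver urea cycle genes 4 were tested, and CEBPB had -0.20 ± 0.36. The block called it lower (-0.17, adjusted p = 0.00595), and the value turned to 0.33 (adjusted p = 0.000156) in the block with GC and length correction.

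**Figure D4:**
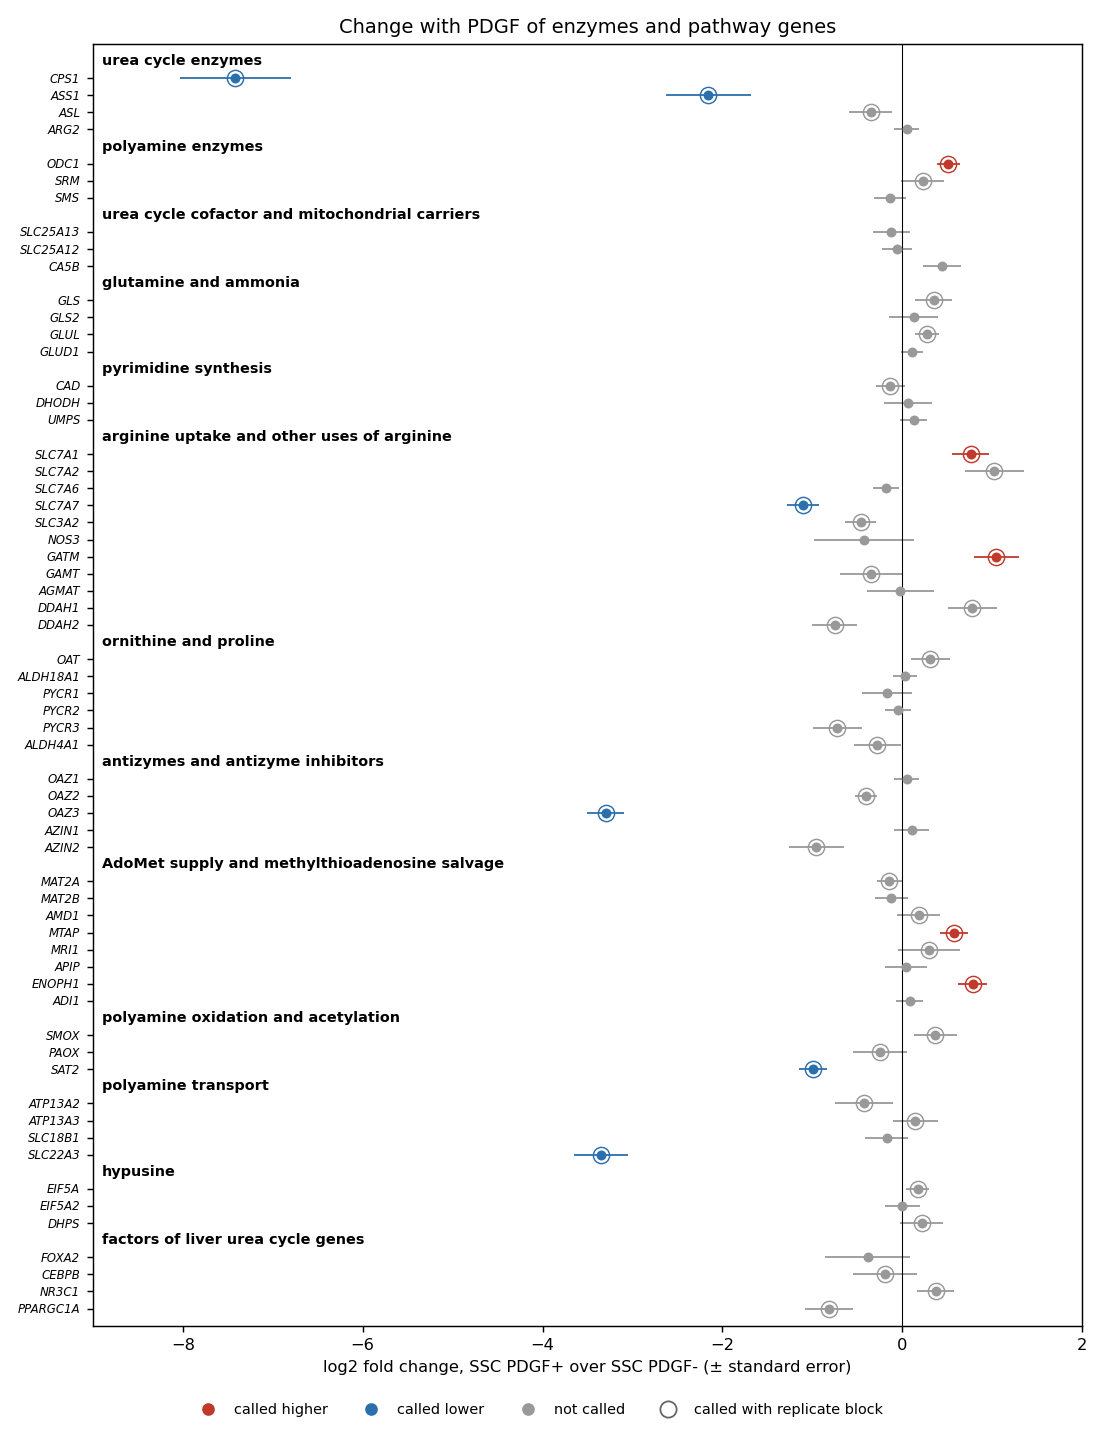
Log2 fold change of SSC PDGF+ over SSC PDGF- with standard error for the 7 enzymes tested and 54 further pathway genes, grouped by list, with calls in color and a ring around genes called with the replicate block. CPS1, OAZ3, SLC22A3 and ASS1 lie farthest to the left, and the CPS1 point depends on the prior count because SSC PDGF+ held 1 count.

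The genes whose levels ran most like CPS1 over the 6 libraries were found by Pearson correlation of log2(CPM + 1) among 10249 candidates. TMEM132C was closest (r = 0.999), with means of 3.69 CPM in SSC PDGF+ and 19.2 CPM in SSC PDGF-. IGFBP3, an insulin-like growth factor binding protein, followed at 180 and 401 CPM, then EGLN3, an oxygen-sensing prolyl hydroxylase, at 9.95 and 58.1 CPM. MYLK, the myosin light chain kinase of smooth muscle, was at 30.8 and 284 CPM, and C3AR1, a complement receptor, at 2.51 and 8.66 CPM, with r of at least 0.998 for all 5. The 6 points fall into the 2 groups, so r follows the gap between them as well as the spread within, and 417 candidates had r over 0.95.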

How the data were processed

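The 6 bulk RNA sequencing libraries, 3 SSC PDGF+ and 3 SSC PDGF-, were grouped by sample title. The authors deposited expected counts per gene without normalization, of which 34 values in 13 genes are not whole, and all were rounded. The submitters' processing notes name fastp, HISAT2 2.1.0, SAMtools and featureCounts 2.0.1, and the builds Mmul_10 and Mmul_8.0.1 with no role given, so no coordinates are printed. Strand use in counting is not given in the sources used here. Of 17795 genes, 3004 had no count and 11539 passed filterByExpr. SSC PDGF+ was compared with SSC PDGF- by edgeR 4.0.16 (R 4.3.3), with TMM factors, the quasi-likelihood test and Benjamini-Hochberg adjustment over all genes tested, and CPM were computed from the same factors. The scripts were tested on simulated data.

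The genes and lists were chosen with earlier results of these data known. Named genes are all members in the table, up to 3 called genes per direction and list, the most abundant gene of a list without calls, and the 5 genes most correlated with CPS1 (mean log2 CPM of at least 1). OAZ1, OAZ2, AZIN1, AZIN2, SMOX, AMD1, HNF4A and the marker genes were named after their values were seen. Exon lengths, GC content and antizyme sites came from RefSeq annotation and transcripts for Mmul_10.

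Same-numbered libraries share a batch by the labels, and their deviations from the group means correlated at 0.812, 0.475 and 0.503. Replicates 2 and 3 crossed gave 0.470 and 0.526, so these values do not single out same-numbered pairs within batch 2. The replicate block took replicate numbers as pairs, which the labels do not state beyond the shared batch. With batch as a term instead, 3604 genes were called higher and 3387 lower. Alternatives were RLE, upper quartile or no factors, a stricter and no count filter, limma-voom (limma 3.58.1), DESeq2 1.42.0, the replicate block with and without GC and length correction, batch as a term, batch 2 alone, each library left out and, added after seeing the data, replicates 2 and 3 summed and genes of identical counts left out. Summaries were computed in Python 3.11.15 with scipy 1.17.1 and pandas 2.3.3, and plots drawn with matplotlib 3.10.9.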

Additional observations from a re-analysis of the deposited data

How the results depend on the processing

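Of the 7 enzymes, the number called higher with PDGF was 1, and 2 with the replicate block, with the block and GC and length correction, with batch as a term and in batch 2 alone. It was 0 to 1 when a library was left out and 0 with replicates 2 and 3 summed. The number called lower was 2, and it was 3 with the block, with the block and correction, with batch as a term and in batch 2 alone, 0 with a minimum of 10 counts per library, which removed CPS1 and ASS1 from the test, 1 to 2 when a library was left out and 1 with replicates summed. ASS1 lost its call without SSC PDGF+ replicate 1 (adjusted p = 0.0501) or 2 (0.0645), without SSC PDGF- replicate 2 (0.0617) and with replicates summed (0.0798). These enzymes were selected on this contrast, and CPS1 and ASS1 passed the filter through SSC PDGF-, so a call in the other alternatives is no support. Of the 54 other pathway genes, the number called higher was 4, and 2 with upper quartile factors, 16 with the block or batch as a term, 20 with the block and correction, 14 in batch 2 alone, 0 with replicates summed and 0 to 4 over the omissions. The number called lower was 4, and 8 with upper quartile factors, 9 with DESeq2, 17 with the block or batch as a term, 14 with the block and correction, 16 in batch 2 alone, 2 with replicates summed and 4 to 8 over the omissions. CEBPB reversed to 0.33 in the block with correction. OAZ3 and SLC22A3 kept direction and call in all 18 alternatives. The cause of these changes was not tested. The 3 enzymes called between batches remained 3, and the 0 called for a batch-dependent difference remained 0, in the 5 alternatives run. Over all genes the replicate block called 3587 higher and 3347 lower, against 878 and 1230 without it, 3991 and 2495 with the correction as well, 1181 and 1544 in DESeq2 and 206 and 487 with replicates 2 and 3 summed. Depth limits CPS1, ASS1 and ARG1 most, and OTC cannot be told from absent below 3 counts per library.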

Other observations

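Markers of further cell types were summed in each library. Of 4 Sertoli cell markers in the table, FATE1 had no count with PDGF and 14, 17 and 2 counts without, while the sum was 110 to 142 CPM with PDGF and 93.0 to 144 CPM without. The Leydig cell sum, without STAR, whose counts equal those of LSM1, was 9.04 to 13.4 CPM with PDGF and 12.1 to 17.1 CPM without, with IGF1 lower with PDGF (3.55 against 10.3 CPM, adjusted p = 0.0139, edgeR), DLK1 at 4.94 against 2.33 CPM (adjusted p = 0.151), CYP17A1 at 2.37 against 1.98 CPM (adjusted p = 0.723), HSD3B2 at 19 counts against 5 and CYP11A1 without a count. Endothelial markers without VWF, whose counts equal those of ANO2, summed to 10.5 to 13.6 and 7.06 to 11.7 CPM, and myeloid markers to 17.0 to 19.5 and 11.6 to 18.4 CPM, with PTPRC at 0 in all libraries. Among genes of this pathway below the count filter, the arginine transporter gene SLC7A3 had no count with PDGF and 2, 5 and 1 counts without, and MAT1A, the liver AdoMet synthetase, none against 3, 0 and 2.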
